A study of Rattus norvegicus with 12 samples.

Results

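The genes described here are C1qtnf1, Nppa, Ece1, Scg2, Chrnb2, Neurod1, Zfp653, Snrpn, Ndor1 and Rnf215, 10 genes that the study linked to the transcriptional repressor REST and set beside the array experiment, apart from its synaptic genes. They were 10 of 15154 genes that could be named on the array, and 11 of 30367 probes, since Snrpn had 2 probes and each other gene had 1. The genes were selected for a difference between OGD and control arrays, so their differences at the time that selected them are given as a description, with no test.

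The arrays measured total RNA of primary hippocampal neurons from E18 Wistar rat embryos, cultures that also hold some glia. OGD (oxygen-glucose deprivation, an in vitro model of ischemia) was 2 h without oxygen in a glucose-free saline with sucrose, and Ctrl cultures were kept in air/CO2 in the same saline with 25 mM glucose. All cultures then recovered in conditioned medium for 7 h or 24 h. Each of the 4 groups (Ctrl and OGD at 7 h, Ctrl and OGD at 24 h) had 3 arrays of 3 cultures, R1 to R3, and each of the 6 slides carried the Ctrl and the OGD array of 1 time and replicate number.

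REST is a zinc finger protein that binds a DNA sequence called repressor element 1 (RE1) and recruits corepressors and histone-modifying enzymes, which keep neuronal genes silent in non-neuronal cells and progenitors. It is turned down as neurons mature, and it is known to return in hippocampal neurons after ischemia. A full RE1 is made of a left and a right arm.

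Promoter stretches of Scg2 and Snrpn, which held an arm of RE1, are printed below. That of Nppa is printed for its TATA box, and it held no arm. RefSeq promoter windows (build GRCr8, 250 bases before to 50 after the start) were found for 8 of the 10 genes, and both strands were searched for the left arm CAGCACC, the right arm GGACAGC, both on 1 strand with 0 to 20 bases between them, the TATA box TATAAA and the GC box GGGCGG. The promoter of Scg2 held both arms with 0 bases between them, 69 to 56 bases before the start. Both arms with 0 to 20 bases between them were present in 0.0896% of all 33469 windows. That share pools all these spacings, and the share with 0 bases between the arms was not computed. Whether the Scg2 pair has the spacing of a full RE1, or binds REST, was not tested. The 30 bases around the Scg2 pair are on chr9:88256914-88256943, printed on the strand opposite to the gene, with the paired arms in capitals. Snrpn held the left arm alone, which 6.78% of all windows hold, and Nppa held a TATA box, present in 14.2%. For both, the 250 bases before the start are printed on the strand of the gene (Snrpn, minus strand, chr1:120338920-120339169; Nppa, plus strand, chr5:163711934-163712183), with the match, or its reverse complement in Snrpn, in capitals.
Scg2: ggccgtttCAGCACCGGACAGCtcctcggc
Snrpn: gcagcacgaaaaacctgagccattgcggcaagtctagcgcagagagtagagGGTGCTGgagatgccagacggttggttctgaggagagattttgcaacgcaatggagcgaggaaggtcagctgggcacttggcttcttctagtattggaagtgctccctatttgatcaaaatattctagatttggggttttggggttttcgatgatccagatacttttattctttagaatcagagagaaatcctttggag
Nppa: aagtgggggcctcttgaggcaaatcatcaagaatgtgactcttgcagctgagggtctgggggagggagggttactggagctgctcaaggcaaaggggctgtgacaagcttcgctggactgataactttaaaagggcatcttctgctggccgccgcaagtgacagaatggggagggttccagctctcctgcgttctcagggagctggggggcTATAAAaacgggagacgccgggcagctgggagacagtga
The GC box was present in the windows of Chrnb2, Ece1 and Neurod1 and in 33.1% of all windows. The window of Rest itself held a right arm, which 6.59% of windows hold, and the GC box. No arm was found in the windows of Chrnb2, Ece1, Ndor1, Neurod1, Nppa and Zfp653, which says only that these letters are not in those 300 bases. The median GC content was 58.7% over the 8 windows and 51.7% over all windows.

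Levels are given as log2 of the spot intensity minus the median of the array, so 0 is the middle probe of an array. The median spot intensity was 447 to 660 units on the Ctrl arrays and 234 to 426 on the OGD arrays at 7 h, and 402 to 477 and 131 to 546 at 24 h. The OGD array of R1 at 24 h, with the lowest median, stood apart from the others, and most results that rest on it are given with and without it. All 11 neuron markers were well above background on all 12 arrays. Their mean level was 3.22 to 3.53 on the Ctrl arrays and 2.72 to 3.17 on the OGD arrays at 7 h, and 3.19 to 3.71 and 1.96 to 2.91 at 24 h, so the groups did not overlap at either time. The 8 astrocyte markers were also well above background on every array, with a mean level of 6.12 to 6.41 on Ctrl and 5.44 to 6.45 on OGD arrays at 24 h. At 7 h it was 6.14 to 6.21 on Ctrl and 6.23 to 6.59 on OGD arrays, so there every OGD array lay above every Ctrl array, opposite to the neuron markers. In such bulk samples fewer cells of a type and less RNA per cell cannot be told apart, and the part of these marker shifts in the results below was not tested.

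Of the genes for secreted and vasoactive products, C1qtnf1 and Nppa lay lower after OGD at both times and Ece1 lay higher at both. C1qtnf1, a secreted protein of the C1q/TNF-related family, had levels of -0.81, -0.75 and -1.43 in Ctrl and -2.90, -2.64 and -3.00 in OGD at 7 h (R1, R2 and R3). At 24 h the levels were -1.40, -1.63 and -1.73 in Ctrl and -3.84, -2.79 and -3.29 in OGD. Every OGD array lay below every Ctrl array, by 1.85 on average at 7 h and by 1.72 at 24 h, or 3.61-fold and 3.29-fold, the largest differences among the 10 genes on this scale. With normexp background correction, which adds an offset of 50 units, they were -0.36 and -0.30, smaller than those of Snrpn (-1.22 and -1.23). Both times belong to its selection, and its spot was not well above background on the OGD array of R1 at 24 h, so 2 of 3 arrays measured it there. On the median-centred scale without that array, the difference at 24 h was -1.45.

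Nppa encodes atrial natriuretic peptide, a hormone of salt and water balance that is also made in brain. Its levels at 7 h were -0.46, -0.77 and -1.36 in Ctrl and -2.15, -1.85 and -2.14 in OGD. At 24 h they were -0.84, -0.94 and -1.50 in Ctrl and -2.84, -1.61 and -2.22 in OGD. The groups did not overlap at either time, and the mean difference was -1.18 at 7 h and -1.13 (SE 0.33) at 24 h, a 2.19-fold lower level. With normexp the differences were -0.18 and -0.19. Ece1 encodes endothelin-converting enzyme 1, which cuts the inactive precursor of endothelin into the vasoconstrictor peptide. Its levels were -0.87, -0.65 and -0.55 in Ctrl and 0.32, 0.06 and 0.09 in OGD at 7 h, and -1.37, -0.66 and -0.55 in Ctrl and -0.02, -0.28 and -0.24 in OGD at 24 h. All OGD arrays lay above all Ctrl arrays at both times, with a mean difference of 0.85 at 7 h and of 0.68 (SE 0.23) at 24 h.

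**Figure D1:**
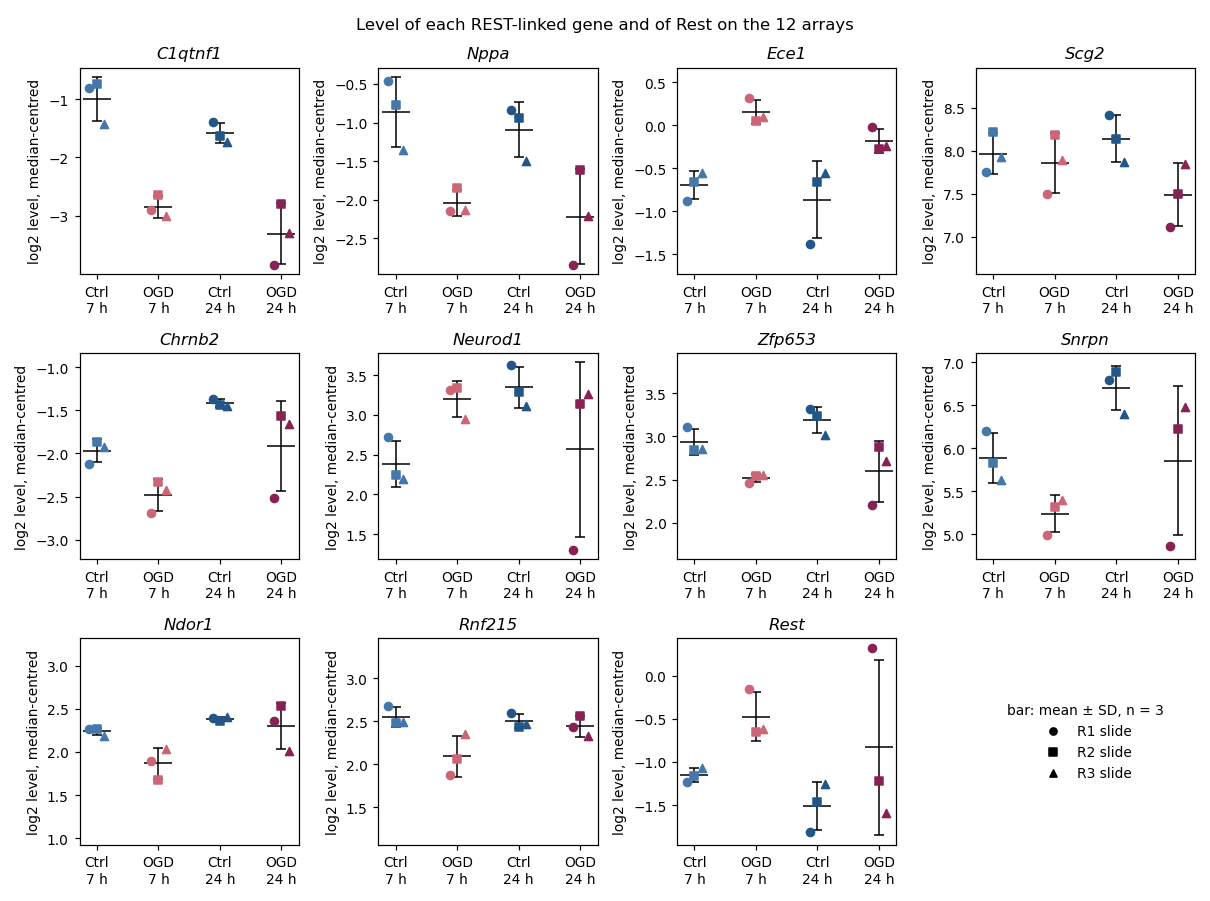
Level of each gene and of Rest on its brightest probe (y axis, log2 of intensity minus the array median, each panel on its own range) in the 4 groups (x axis); points are arrays, marked by replicate number, and bars give mean ± SD of 3 arrays. The OGD array of R1 at 24 h (circle, far right of each panel) is the lowest of the 12 for C1qtnf1, Nppa, Scg2, Neurod1, Zfp653 and Snrpn and the highest for Rest.

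Scg2, Chrnb2 and Neurod1 act in neuronal secretion, signalling and fate, and their values followed different courses. Scg2 encodes secretogranin II, a granin of dense-core vesicles and the source of the peptide secretoneurin. At 24 h its levels were 8.42, 8.13 and 7.87 in Ctrl and 7.11, 7.50 and 7.85 in OGD. The mean difference was -0.65 with groups that did not overlap, although the R3 slide differed by -0.02 only. The Ctrl value of R1 was saturated, so this difference is a bound too, and it was -0.46 without the OGD array of R1. At 7 h the levels were 7.75, 8.22 and 7.93 in Ctrl and 7.50, 8.19 and 7.89 in OGD, and the groups overlapped. The Scg2 spot was saturated on all 3 Ctrl arrays at 7 h and on 1 Ctrl array at 24 h, so the Ctrl level at 7 h is only a bound, at least 1.08-fold higher than OGD (limma adjusted p = 0.875 for the values as read, which says nothing of the difference above saturation).

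Chrnb2, the beta2 subunit of neuronal nicotinic acetylcholine receptors, had levels of -2.12, -1.86 and -1.92 in Ctrl and -2.70, -2.33 and -2.43 in OGD at 7 h, a mean difference of -0.52. At 24 h they were -1.37, -1.44 and -1.45 in Ctrl and -2.51, -1.56 and -1.66 in OGD. The groups did not overlap at 24 h either, but the mean difference of -0.50 (SE 0.24) came mostly from the R1 slide, at -1.15 against -0.12 and -0.22. Without the OGD array of R1 the mean difference at 24 h was -0.20. With normexp Chrnb2 turned to 0.44 at 7 h and 0.13 at 24 h. Neurod1, a basic helix-loop-helix factor of neuronal differentiation, lay higher after OGD at 7 h, with levels of 2.72, 2.24 and 2.19 in Ctrl and 3.32, 3.34 and 2.94 in OGD (mean difference 0.81). At 24 h its levels were 3.63, 3.29 and 3.12 in Ctrl and 1.30, 3.13 and 3.26 in OGD. The groups overlapped, and the difference of -0.78 (SE 0.44) was -0.15 without the OGD array of R1. Neurod1 was the only one of the 10 genes whose mean difference had opposite signs at the 2 times.

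Zfp653 and Snrpn encode nuclear proteins, a zinc finger protein and SmN, a core protein of the spliceosome that is expressed from the paternal allele and mostly in neurons. Zfp653 had levels of 3.11, 2.84 and 2.85 in Ctrl and 2.46, 2.54 and 2.55 in OGD at 7 h, and of 3.32, 3.23 and 3.02 in Ctrl and 2.20, 2.88 and 2.71 in OGD at 24 h. The OGD arrays were lower throughout, by 0.42 on average at 7 h and by 0.59 (SE 0.20) at 24 h. The brighter Snrpn probe had levels of 6.20, 5.83 and 5.63 in Ctrl and 5.00, 5.32 and 5.40 in OGD at 7 h. At 24 h it had 6.80, 6.89 and 6.40 in Ctrl and 4.86, 6.22 and 6.47 in OGD, and the groups overlapped through the R3 slide. Its mean difference was -0.65 at 7 h and -0.84 (SE 0.37) at 24 h, and the other Snrpn probe gave -0.68 and -0.74, the latter outside the unadjusted threshold (limma adjusted p = 0.380).

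The last pair, Ndor1, a flavoprotein oxidoreductase of iron-sulfur protein assembly, and Rnf215, a RING finger protein, had smaller differences at 24 h than at 7 h. Ndor1 had levels of 2.26, 2.26 and 2.19 in Ctrl and 1.89, 1.68 and 2.04 in OGD at 7 h (mean difference -0.37), and a difference of -0.09 (SE 0.18) at 24 h. Rnf215 had levels of 2.68, 2.48 and 2.49 in Ctrl and 1.87, 2.06 and 2.35 in OGD at 7 h (mean difference -0.46), and a difference of -0.06 (SE 0.17) at 24 h. Both genes overlapped between the groups at 24 h. By the methods' t-test, which the selection used, Rnf215 at 7 h was the member nearest inside the threshold of 0.05 on its brightest probe, at 0.041, and Nppa at 24 h lay nearest outside it, at 0.052. Scg2 passed at neither time on these values and was taken as selected at 24 h, the time of its lower value, 0.069.

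**Figure D2:**
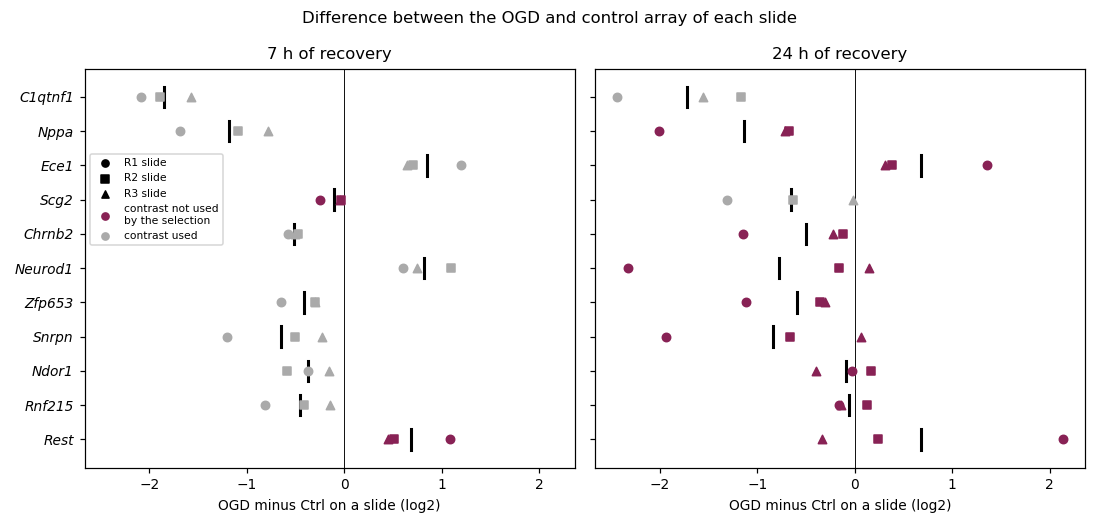
OGD minus Ctrl on each slide (x axis, log2) for each gene and Rest at 7 h and 24 h of recovery; symbols are slides, black bars are means of 3 slides, and grey points belong to contrasts that the selection used. At 24 h the R1 slide (circles) has the largest difference for 9 of the 10 genes, Ndor1 being the exception.

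At 7 h, 8 genes lay below 0 and 2 above, with OGD arrays all below Ctrl arrays for 7 genes and all above for 2. Over all probes such separation was present for 15.5% (below) and 10.6% (above), but 9 of the 10 genes were selected on this contrast, so nothing is read from these counts. At 24 h, 9 genes lay below 0 and 1 above, with the groups apart for 5 genes below (7.02% of all probes) and 1 above (10.9%); C1qtnf1 and Scg2, among the 5, were selected at this time. C1qtnf1, Nppa, Scg2, Chrnb2 and Zfp653 were lower on all 6 slides, as were 7.27% of all probes, and Ece1 was higher on all 6, as were 8.81%. The 6 slides include those of the time that selected each gene, so nothing is read from these counts either.

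For 8 genes the selection had used 7 h alone, and their mean difference at 24 h comes from other arrays. The limma test takes its spread from all 12 arrays, those of 7 h included, so its p-values are not independent of the selection. By limma across all probes, 4 of the 8 passed the unadjusted threshold of 0.05, against 13.7% of all probes. Nppa (adjusted p = 0.272), Zfp653 (adjusted p = 0.293) and Snrpn (adjusted p = 0.355) were lower and Ece1 (adjusted p = 0.290) was higher. Chrnb2 (adjusted p = 0.395), Neurod1 (adjusted p = 0.445), Ndor1 (adjusted p = 0.863) and Rnf215 (adjusted p = 0.923) did not pass. After Benjamini-Hochberg adjustment over 30367 probes none of the 8 passed in limma, and no probe of the array did at either time. Without the OGD array of R1, Nppa (-0.82), Ece1 (0.60) and Zfp653 (-0.39) still passed the unadjusted threshold, and Snrpn (-0.35) did not. With normexp only Zfp653 (-0.87) passed, and with spike-in scaling none of the 8 did. With the arrays of 24 h alone, only Nppa passed by limma (8.48% of all probes) and none of the 8 by the methods' t-test (6.33%). In the shared fit, Nppa and Zfp653 passed the unadjusted threshold whichever of the 12 arrays was left out. Ece1 did not without the Ctrl array of R1 at 24 h (0.43), and Snrpn passed only with the Ctrl array of R3 at 24 h or the OGD array of R2 or R3 at 24 h left out. Chrnb2 passed without the OGD array of R2 (-0.67) or R3 (-0.62) at 24 h, and Neurod1 without that of R3 (-1.13).

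Rest, the gene of the repressor, was measured by 1 probe, with levels of -1.23, -1.16 and -1.07 in Ctrl and -0.15, -0.65 and -0.62 in OGD at 7 h. At 24 h they were -1.81, -1.46 and -1.26 in Ctrl and 0.32, -1.23 and -1.59 in OGD. The OGD arrays were all higher at 7 h, whereas at 24 h the groups overlapped and the R1, R2 and R3 slides differed by 2.13, 0.24 and -0.33. The mean difference was 0.68 (SE 0.41) at both times and did not pass the unadjusted threshold at either (limma adjusted p = 0.519 at 7 h and adjusted p = 0.467 at 24 h). The difference at 7 h passed that threshold by the methods' t-test, by limma on the arrays of 7 h alone, and by limma without the OGD array of R1 at 24 h, which enters the shared estimate of spread. At 24 h the mean was -0.05 over the R2 and R3 slides.

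Before centring, the intensity of the Rest spot was 96.5 to 127 units in Ctrl and 109 to 132 in OGD at 7 h, and 53.5 to 88.3 and 75.3 to 94.2 at 24 h. The intensity of Rest therefore overlapped between the groups at both times, while the array median was lower in OGD on 5 of 6 slides. Ece1 had 137 to 182 units in Ctrl and 151 to 216 in OGD at 7 h, and C1qtnf1 had 99.0 to 167 and 16.2 to 29.0. When arrays were scaled to a spike-in probe in place of their median, the median of all probes moved by -0.81 at 7 h and by -1.02 at 24 h, and Rest differed by -0.13 at 7 h and -0.34 at 24 h. On that scale Ece1 differed by 0.04 at 7 h and -0.34 at 24 h, and Neurod1 by 0.01 at 7 h. The higher levels of Rest, Ece1 and Neurod1 are thus relative to the other probes of the array.

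**Figure D3:**
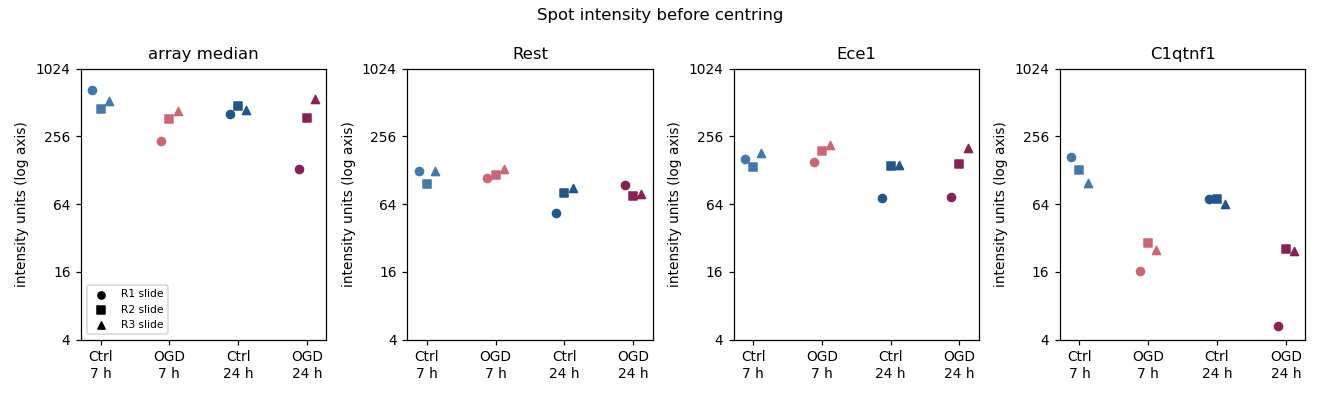
Intensity before centring (y axis, units on a log axis) of the median spot of an array and of the Rest, Ece1 and C1qtnf1 probes in the 4 groups (x axis); points are arrays, marked by replicate number. Rest spans 53.5 to 132 units over the 12 arrays with overlapping groups, whereas C1qtnf1 lies between 5.27 and 29.0 on the OGD arrays and between 63.6 and 167 on the Ctrl arrays.

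Over the 12 arrays, the level of 9 of the 10 genes had a negative Pearson r with the level of Rest, as did 49.1% of all probes. These values include the group differences that selected the genes and are a description. The Rest spot spanned 53.5 to 132 units over the 12 arrays and the array medians 131 to 660, so the centred Rest level also carries the array median. The part of the array median in the values against Rest was not tested. Snrpn had r = -0.93 and Spearman's rho = -0.97 (the other Snrpn probe r = -0.96), Zfp653 r = -0.88 and rho = -0.83, and Chrnb2 r = -0.88 and rho = -0.90. Ece1 was the positive one, with r = 0.76 and rho = 0.75. Without the 2 arrays farthest from the median of Rest, which were the OGD arrays of R1 at 7 h and 24 h, r was -0.92 for Snrpn, -0.77 for Zfp653, -0.86 for Chrnb2 and 0.76 for Ece1, but -0.26 for C1qtnf1 and -0.19 for Scg2, against -0.60 and -0.69 over all arrays.

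**Figure D4:**
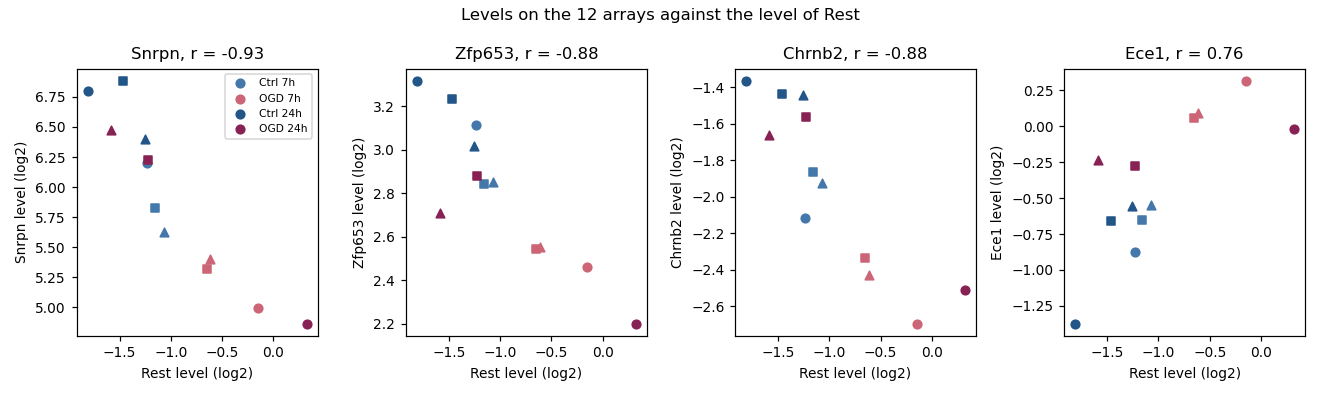
Level of Snrpn, Zfp653, Chrnb2 and Ece1 (y axes, log2, each panel on its own range) against the level of Rest (x axis, log2) on the 12 arrays, coloured by group and marked by replicate number as in the plot of levels. The OGD array of R1 at 24 h, at a Rest level of 0.32, is the rightmost point of each panel and the lowest for Snrpn and Zfp653.

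The selection compared group means, but the spread inside the groups entered its t-test. Inside the groups, r of the deviations from the group means was -0.95 for Snrpn (exact permutation p = 0.0062) and -0.86 for Zfp653 (exact permutation p = 0.0316). It was -0.91 for Neurod1 (exact permutation p = 0.0471) and 0.54 for Ece1 (exact permutation p = 0.0039). For Scg2 it was -0.76, given with no test because 4 of its 12 values were saturated and follow the array median there. The other 5 genes did not pass this two-sided test, among them Chrnb2 with r = -0.91 (exact permutation p = 0.0656). The share of all probes that pass this exact test was not computed, so nothing is read from the count of genes. In a limma fit with the Rest deviation as a covariate, 5 of the 10 genes had a negative slope at an adjusted p under 0.05 (Snrpn, Neurod1, Chrnb2, Zfp653 and the partly saturated Scg2), but so did 32.6% of all probes in either direction and 16.8% in the negative one. Without the OGD array of R1 at 24 h the count was 0 of the 10 genes and 0% of all probes. On the median-centred scale without that array, r inside the groups was -0.75 for Snrpn and 0.77 for Ece1 (exact permutation p = 0.0231 and 0.0116). Zfp653 (r = -0.46, exact permutation p = 0.197) and Neurod1 (r = -0.40, exact permutation p = 0.292) no longer passed. With spike-in scaling all 10 slopes were positive and passed, as did 97.7% of all probes. On the differences between the arrays of a slide, r inside each time was -0.97 for Snrpn, -0.97 for Zfp653 and 0.97 for Ece1 (exact permutation p = 0.0278 for each). That is the lowest p that 36 permutations allow. Neurod1 (r = -0.98, exact permutation p = 0.0556), Chrnb2 (r = -0.94, exact permutation p = 0.167) and Nppa (r = -0.93, exact permutation p = 0.0833) did not pass, nor did C1qtnf1, Ndor1 and Rnf215. These values were computed neither over all probes nor without the R1 slide of 24 h, where Rest differed by 2.13.

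Of 32 other genes known for RE1 sites, listed from general knowledge, 31 had a probe. At 7 h, 3 of the 31 were lower and 2 higher at the unadjusted threshold of limma (7.03% and 4.79% of all probes), with a median difference of -0.39 against -0.06 over all probes. The 2 higher genes were Unc13a, a vesicle priming factor (0.90), and Mapk8ip1, a JNK scaffold (0.60), whose probe was saturated on 10 of 12 arrays and so holds no measured difference, and without the OGD array of R1 at 7 h the counts were 1 lower and 0 higher. At 24 h, 10 were lower and 0 higher (6.19% and 7.51% of all probes), with a median of -0.87 against 0.01, and none passed after adjustment. The lowest p-values at 24 h belonged to Cdk5r1, the p35 activator of Cdk5 (-0.80, adjusted p = 0.269), Syn1, a synaptic vesicle phosphoprotein (-1.26, adjusted p = 0.269), and Grin1, the obligatory NMDA receptor subunit (-1.28, adjusted p = 0.269). Grin1, Snap25 and Gria2 are also among the synaptic genes of the study, which listed Grin1 as lower at 24 h on these arrays. The value of Grin1, counted among the 10, is therefore a description. Without the OGD array of R1 at 24 h, 4 of the 31 were lower, with a median of -0.28, and the count was 6 without the Ctrl array of R1 at 24 h and 20 without the OGD array of R3 at 24 h. At 24 h, 9 of the 11 neuron markers were lower by the same rule, and 4 without the OGD array of R1 at 24 h.

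**Figure D5:**
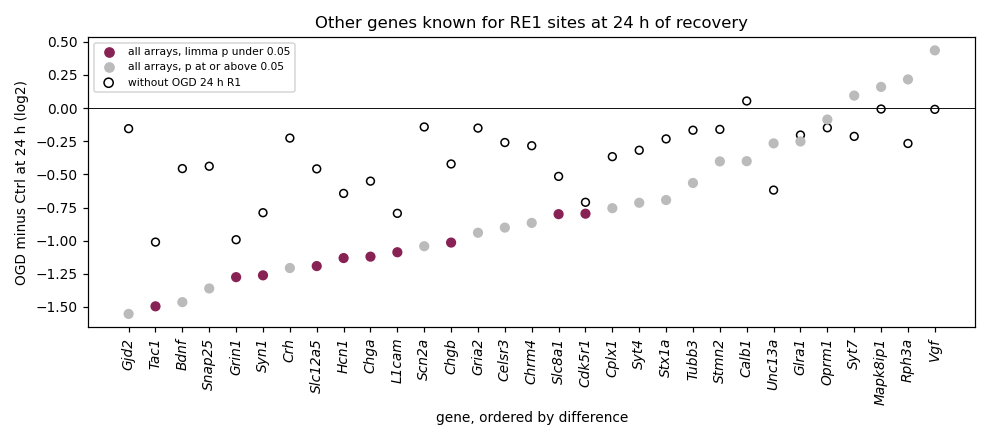
Difference between OGD and Ctrl at 24 h (y axis, log2) of 31 other genes known for RE1 sites (x axis, in order of the difference), with filled points from all arrays, coloured by limma p, and open points without the OGD array of R1. Filled points of 27 genes lie below 0, with a median of -0.87 over all 31, and the open points have a median of -0.28.

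Of the 11 measured genes for REST and its corepressors, Ehmt2, a histone H3 lysine methyltransferase, was the only one to pass the unadjusted limma test at either time, at -0.69 at 7 h (adjusted p = 0.293) and -0.72 at 24 h (adjusted p = 0.275). Relatives of the 10 genes were read by the same unadjusted threshold of limma, which 7.03% of all probes passed downward at 7 h and 6.19% at 24 h (4.79% and 7.51% upward). Of 11 natriuretic and endothelin genes, 2 were lower and 1 higher at 7 h, and 1 was lower and 1 higher at 24 h. Nppc, the C-type natriuretic peptide, was lower at 7 h (-0.997, adjusted p = 0.381) and not called at 24 h (-0.29). Ece2, the homologue of Ece1, was lower at 7 h (-1.05, adjusted p = 0.270) and at 24 h (-0.74, adjusted p = 0.329), the opposite sign to Ece1, but at 24 h it did not pass without the OGD array of R1 (-0.47). The 2 higher calls, Nppb and Edn1, were well above background on 2 and 0 of the 12 arrays. Of 10 other nicotinic subunits, Chrna4, which assembles with Chrnb2, was lower at 7 h (-1.24, adjusted p = 0.255) and at 24 h (-0.72, adjusted p = 0.354), the latter not without the OGD array of R1 (-0.52). Chrna7 was lower at 24 h (-0.76, adjusted p = 0.354).

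Of 6 other dense-core granule genes, 1 was lower at 7 h (0 without the OGD array of R1 at 7 h) and 4 at 24 h (2 without the OGD array of R1), led by Pcsk1n, a proprotein convertase inhibitor (-0.58, adjusted p = 0.290), and Pcsk2, a prohormone convertase (-1.64, adjusted p = 0.290, and -0.88 without that array). Of 10 other proneural factors, Neurod2 (-1.47, adjusted p = 0.267) and Neurod6 (-1.58, adjusted p = 0.315) were lower at 24 h. Without the OGD array of R1 at 24 h, Neurod2 still passed (-0.91) and Neurod6 did not (-0.72). Of 11 C1q/TNF-related genes, 2 were lower at 7 h, C1ql2 (-1.44, adjusted p = 0.196) and C1ql1 (-1.11, adjusted p = 0.276), and 3 were lower and 1 higher at 24 h, with 0 lower and 1 higher without the OGD array of R1. Of 8 genes near Snrpn or encoding Sm proteins, Snurf, which shares a transcript with Snrpn, was lower at 24 h (-0.71, adjusted p = 0.334), and it did not pass without the OGD array of R1 (-0.37).

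The genes whose level ran closest to that of a member over the 12 arrays were sought among 10906 or 10907 genes well above background on every array. Nppa was nearest to Minar2 (r = 0.98), Plekhg5 (r = 0.97) and Gramd1a (r = 0.97). C1qtnf1 was nearest to Plekhg5 (r = 0.96), Arhgap10 (r = 0.96) and Nppa (r = 0.96), so 2 of the selected genes ran together. Scg2 was nearest to Epb41l3 (r = 0.93), Arel1 (r = 0.92) and Arpc5 (r = 0.92), but its level follows the array median where its spot was saturated. Rest was nearest to Iqgap1 (r = 0.96), Rnh1 (r = 0.96) and Rcan3 (r = 0.96). The arrays of a group and the depth of an array are shared by all genes in these values.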

How the data were processed

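RNA of 1 culture per array was labelled with Cy3 and hybridized by the authors to one-colour Agilent rat arrays designed on build rn4. The deposited intensity values come from Agilent Feature Extraction, which subtracted background without scaling between arrays, and the authors also deposited log2 values centred on the array median, which equalled the values computed here within 0.01 after 1 constant per array for at least 99.9967% of probes. Here, outlier spots were left out, intensities were put on the log2 scale and averaged per probe, and each array was centred on the median of its 30367 non-control probes, with no filter on signal. Probes were named through their RefSeq accession (18004 of 30367), and the brightest probe stands for a gene. The 4 groups were fitted in 1 model with limma 3.58.1 (R 4.3.3), two-sided, with Benjamini-Hochberg adjustment over all probes, and the fit was tested on simulated data. Co-variation with Rest was tested by exact permutation of arrays inside groups. The number of arrays limits the precision.

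The 10 genes and all gene lists were chosen with earlier results of these data known, and 1 listed gene is not reported here. The named genes are all 10 members and Rest, genes of the other lists with an unadjusted p under 0.05, at most 6 per list and time, and the 3 nearest genes of C1qtnf1, Nppa, Scg2 and Rest. The contrasts used by the selection were taken as those with a methods' t-test p under 0.05 here or, where neither time passed, the time with the lower p. Same-numbered arrays did not deviate together in every pair (r from -0.05 to 0.17), so the slide was not in the model. Alternatives were other scalings (75th percentile, quantile, 1 usable spike-in probe of 23), normexp background correction (on median signals, since the files hold no mean signal), a filter on dim probes, the authors' values, the methods' t-test, limma on each time alone, the slide as a block, 1 mean value per gene over its probes, and every array omitted once.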

Additional observations from a re-analysis of the deposited data

How the results depend on the processing

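The number of probes with a limma p under 0.05 was 3590 at 7 h and 4160 at 24 h. It was 358 and 537 with spike-in scaling, 6021 and 1463 with normexp, 5453 and 2574 with limma on each time alone, and 1855 and 2171 with 1 mean value per gene, and 1923 at 24 h with the methods' t-test. Leaving out each array in turn gave 1705 to 6399 at 7 h and 2087 to 6470 at 24 h.

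Of the 9 contrasts the selection had not used (8 genes at 24 h and Scg2 at 7 h), 4 passed, against 0 with spike-in scaling, 1 with normexp, 0 with the methods' t-test, 1 with limma on each time alone, and 2 to 6 with an array left out. With the slide as a replicate block, 3 passed, since Snrpn no longer passed, and the paired fit changed no other call among them. Other genes known for RE1 sites that were lower at 7 h numbered 1 with the 75th percentile, 0 with spike-in scaling, 5 with the methods' t-test, 9 with limma on each time alone and 1 to 8 with an array left out. At 24 h they numbered 1 with the methods' t-test, 6 with limma on each time alone, 6 with the replicate block, and 4 to 20 with an array left out. Genes that passed the exact test against Rest, the partly saturated Scg2 included, numbered 5. They numbered 2 with the 75th percentile, 3 with quantile scaling, 3 with the replicate block and 3 to 5 with an array left out. With spike-in scaling they numbered 10, all with a positive slope, and 97.7% of all probes passed the limma fit there. The share of all probes that pass the exact test was not computed, so nothing is read from these counts of genes.

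Signs changed for Chrnb2 under normexp (0.44 at 7 h, 0.13 at 24 h), for Ece1 at 24 h (-0.34) and Rest (-0.13 at 7 h, -0.34 at 24 h) under spike-in scaling, for Ndor1 at 24 h (0.025 and 0.022) and Rnf215 at 24 h (0.053 and 0.047) under the 75th percentile and quantile scaling, and for Scg2 at 7 h under the 75th percentile (0.0049). With an array left out, Ndor1 at 24 h ranged from -0.20 to 0.058 and Scg2 at 7 h from -0.27 to 0.071. Of 242 member or Rest values under the other alternatives, 10 changed sign. The causes were not tested.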
